A study of Coturnix japonica with 54 samples.

Results

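Male Japanese quail were compared at the same day length, 10 h of light, on the way down to the shortest days and on the way back up. The group called 10La held the 6 birds labelled with that treatment on the declining arm, and the group called 10Lv the 6 birds on the rising arm, so 12 of the 54 birds of the study were compared. The letters a and v were read as the autumnal (declining) and vernal (rising) arm from the order of the light schedule. All birds began on 16 h of light; day length then fell through 14, 12 and 10 h to 8 h and rose again in the same steps, with 2 weeks at each. 10La birds were therefore collected at the fourth step, coming from longer days, and 10Lv birds at the sixth step, coming from 8 h of light and 4 weeks later, so that the direction of change and the time in the study cannot be told apart. No age, genotype or drug treatment separates the groups in the labels, and collection within a group was guided by body mass. Each library came from 1 bird, so birds were the replicates. P-values set a difference between groups against the spread between libraries, which the fits estimated from all 9 groups.

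Quail read day length in the mediobasal hypothalamus. On long days the pars tuberalis, the part of the pituitary that wraps the stalk, releases thyrotropin, a dimer of the glycoprotein hormone alpha subunit (CGA) and a beta subunit (TSHB). Thyrotropin acts on the ependymal layer of the hypothalamus to raise DIO2, the deiodinase that makes active thyroid hormone, and to lower DIO3, which inactivates it, and the gonadotropins LH and FSH follow. CGA is also the alpha subunit of those gonadotropins, and FSHB is the beta subunit that gives FSH its identity.

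Expression in these birds, read by long-read Nanopore sequencing of cDNA, was deposited as 2 tables with different contents, and each was analysed by itself. The first, the CPM table, holds read counts scaled to a common library size (CPM); the reads behind its columns could be recovered and ranged from 292502 to 1069313 per library in these 12 birds. The second, the count table, holds estimated counts per transcript, summed here per gene, and is shallow: its totals ranged from 25849 to 123259 in 10La (median 43226.5) and from 13209 to 56672 in 10Lv (median 21097). The CPM table carried hypothalamic markers, with 1037 reads of NPY in 10La and 839 in 10Lv, and none of FSHB or TSHB in either group. Replicate 3 was a shallow library of the CPM table, below 0.5 of the median depth, in 7 of the 9 groups, with 298308 reads in 10La and 292502 in 10Lv. The count table had 0 counts of NPY, VIP, AGRP and HCRT in all 12 libraries, against 6971 counts of POMC in 10La and 4239 in 10Lv and 1749 and 788 of PRL, which are pituitary hormone genes. A count of 0 in the count table allows up to 9.40 CPM in 10La and 17.9 CPM in 10Lv (3 counts of the group total, counting error only). By the highest transcript of each gene in place of the sum these limits were 19.7 and 35.2 CPM. Tissue was labelled mediobasal hypothalamus throughout. Whether the libraries of the count table came from pituitary tissue, in part or in whole, was not tested. Libraries 10La replicate 2 and 10Lv replicate 5 stood apart in the count table: 5 features took 90.4% and 87.4% of their counts, against 32.6% to 54.1% in the other 10 libraries, and they had 1081 and 725 detected genes. Without this pair 0 of 826 genes were called in the count table, as with it. Few genes were also detected in replicate 5 of 12La (820), 8L (1545), 12Lv (963) and 14Lv (544). The same held for replicates 1 (1051) and 3 (1315) of 16Lv. These libraries of other groups stayed in the fits without the pair, and so in their estimate of spread.

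In the count table, as CPM of the library total, CGA was the only fitted gene whose birds did not overlap between the arms. In 10La its level ran from 464 CPM in the lowest library through a median of 1269 to 2179 in the highest, and in 10Lv from 2271 through 2994 to 4651. On this scale of CPM of the library total, every bird on the rising arm was thus above every bird on the declining arm. The margin between the nearest pair was narrow. The totals include 5 features that took 90.4% of the counts of 10La replicate 2 and 33.1% of those of 10Lv replicate 1. CGA was at 504 CPM in the former bird and 2400 CPM in the latter. With those features left out of the totals, 10La replicate 2 lies above 10Lv replicate 1, so the groups overlap on that scale. The means of CGA were 1190 ± 650 and 3246 ± 1025 CPM (SD, n = 6 each), from 398 and 509 counts in all. The log2 change was 1.30 (SE 0.35), and by edgeR's quasi-likelihood test with Benjamini-Hochberg adjustment it did not pass the threshold (unadjusted p = 0.000585, adjusted p = 0.242 over 826 genes). An exact two-sided permutation test of CGA alone gave p = 0.00216, the smallest that the splits of 6 against 6 birds allow, and after adjustment over 11026 genes 0 passed (92 at an unadjusted p under 0.05). A p of that size passes such an adjustment only where many genes share it, so this 0 shows little. Groups that do not overlap always give this smallest p, so the test of CGA alone adds nothing to its separation. In bulk tissue, a larger share of CGA-expressing cells and more CGA RNA per cell cannot be told apart.

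No gene of 826 was called in the count table (0.0%). At an unadjusted p under 0.05 there were 41 genes (4.96%), of which 11 were higher (1.33%) and 30 lower (3.63%) in 10Lv. This split moved with the setting. It was 28 higher and 24 lower without 10La replicate 1, and 7 and 36 without 10La replicate 2. With the highest transcript of each gene in place of the sum it was 7 and 2, of 210 genes fitted. As CPM of the library total, genes that did not overlap between the groups made up 0.121% of the 826 fitted on sums, and CGA was that gene. The call on CGA moved with the way the counts were made. Transcripts of a gene often carried the same count: among 33968 pairs of a gene and a library with at least 3 transcripts and a highest transcript count of at least 2, 36.1% had the same count at every transcript, and the sums per gene were 2.08 times the sums of the highest transcript. With the highest transcript of each gene in place of the sum, 210 genes were fitted and CGA was the single gene called (log2 change 1.43, SE 0.34, edgeR adjusted p = 0.0171). DESeq2 on the summed counts also called CGA and no other gene (log2 change 1.39, SE 0.27, adjusted p = 0.00025). With another kind of size factor (poscounts), DESeq2 did not call CGA (log2 change 1.44, SE 0.39, adjusted p = 0.0984). On sums it was not called by limma-voom (adjusted p = 0.0966) or limma-trend (0.998). The same held for edgeR with library totals (0.147) or TMM over all genes (0.905). CGA was called under 7 of 21 alternatives other than leaving out 1 library. Without 10La replicate 2 and 10Lv replicate 5, the log2 change was 1.27 on sums (SE 0.41, edgeR adjusted p = 0.397) and 1.37 with the highest transcript (SE 0.36, edgeR adjusted p = 0.0771), and 0 genes were called in either.

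**Figure D1:**
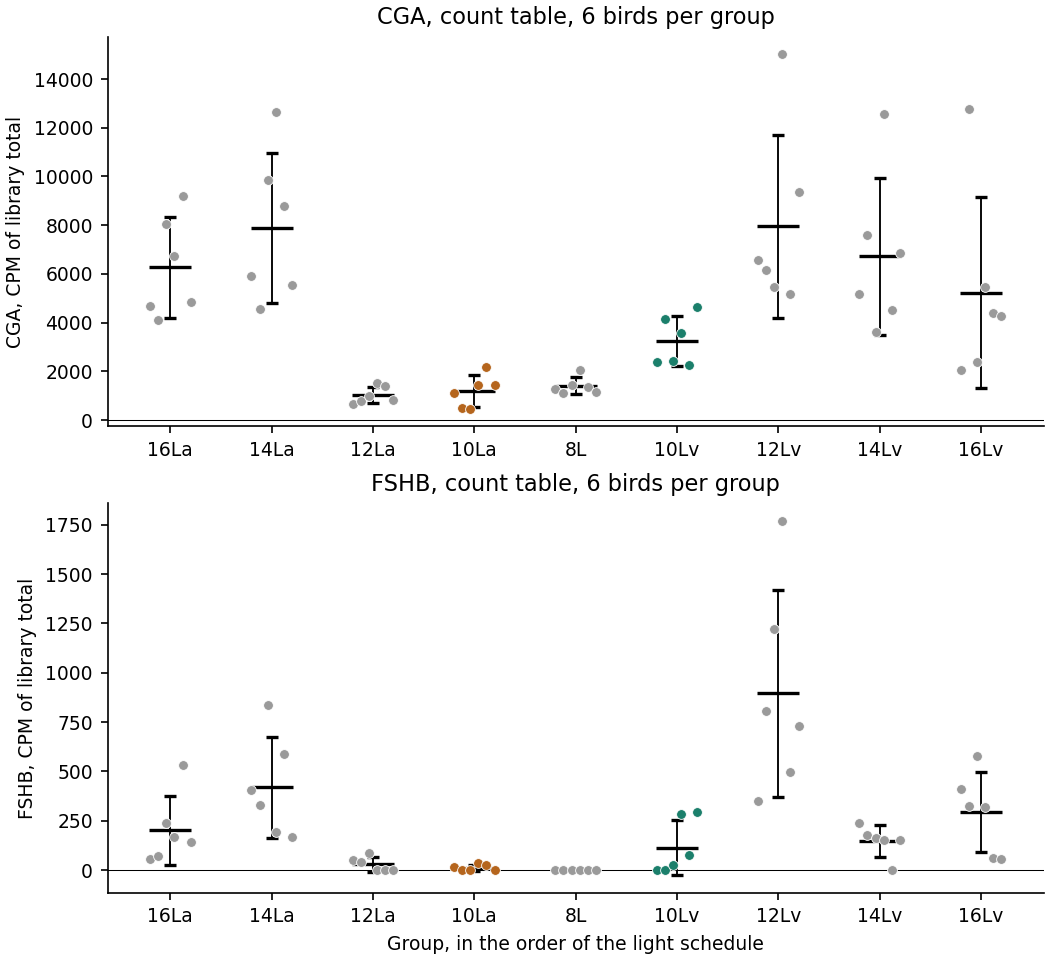
CGA (top) and FSHB (bottom) in the count table, as CPM of the library total, for each bird of the 9 groups in the order of the light schedule; points are birds, bars are mean ± SD, 10La is brown and 10Lv is green. CGA in the 6 birds of 10Lv lies between 2271 and 4651 CPM, all above the 464 to 2179 CPM of 10La, and FSHB reaches 293.8 CPM in the highest bird of 10Lv.

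PRL and POMC changed by less than their errors. PRL, which encodes prolactin, was at 4581 ± 2375 CPM in 10La and 4124 ± 2035 in 10Lv (log2 change -0.23, SE 0.43). POMC, the precursor of the melanocortins, was at 20878 ± 10185 and 21672 ± 13271 CPM (log2 change -0.04, SE 0.53). The ranges of the 8 listed pituitary markers other than CGA and FSHB overlapped widely: their summed level ran from 3635 to 42640 CPM in 10La and from 5829 to 59930 in 10Lv. Set against PRL of the same library, CGA was at a ratio of 0.312 ± 0.174 in 10La and 0.943 ± 0.427 in 10Lv (exact permutation p = 0.0195, n = 6 each, unadjusted). Against POMC the ratios were 0.0814 ± 0.0741 and 0.247 ± 0.212 (exact permutation p = 0.0411), and against the secretory granule protein gene CHGA 0.379 ± 0.412 and 1.32 ± 1.84 (exact permutation p = 0.141). These 3 ratios were chosen after the values of CGA had been seen, and with Benjamini-Hochberg adjustment over the 3 the exact permutation p was 0.0584, 0.0617 and 0.141, so none passed on summed counts. With the highest transcript per gene it was 0.0422 for PRL, 0.0422 for POMC and 0.141 for CHGA, so that both hormone ratios passed. Without 10La replicate 2 and 10Lv replicate 5 it was 0.0595, 0.0476 and 0.0952 in that order, from sums as from the highest transcript, so that the ratio to POMC passed there and the others did not. The ratio to CHGA was 5 in 10Lv replicate 5. The birds of the groups overlapped in each ratio.

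FSHB rested on few counts. There were 5 counts over the 6 libraries of 10La, with at most 2 in a library, and 14 over those of 10Lv, where 2 libraries held 6 each, 2 held 1 each and the others none. The levels were 12.7 ± 15.2 and 114 ± 139 CPM, and the groups overlapped at 0. The log2 change was 2.56 (SE 0.92, edgeR adjusted p = 0.494), and 2.48 without 10La replicate 2 and 10Lv replicate 5 (edgeR adjusted p = 0.770). It was 1.22 by limma-voom and 0.71 by limma-voom on the highest transcript, and ran from 2.06 to 3.05 when 1 library was left out. TSHB had 19 counts in 10La and 22 in 10Lv, at 55.9 ± 39.7 and 106 ± 103.4 CPM, below the level needed for the fit. Along the schedule CGA was at 1033 ± 338 CPM in 12La, 1190 ± 650 in 10La and 1405 ± 348 in 8L, then at 3246 ± 1025 in 10Lv and 7957 ± 3760 in 12Lv. The mean of 10La differed from those of 12La and 8L by less than its own SD. The means of 12La and 8L lay slightly further apart than either of their SDs. The mean of 10Lv lay between these 3 groups and 12Lv.

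The CGA difference at 10 h was set against that at the neighbouring day lengths, which share no bird with it. Rising minus declining was a log2 change of 1.30 at 10 h, 2.79 (SE 0.37) at 12 h and -0.48 (SE 0.35) at 14 h. The 10 h difference was lower than the 12 h difference by 1.49 (SE 0.50, edgeR adjusted p = 0.461) and higher than the 14 h difference by 1.78 (SE 0.49, edgeR adjusted p = 0.358); neither passed, and 0 of 826 genes (0.0%) did in either test, with 43 and 38 at an unadjusted p under 0.05. Without 10La replicate 2 and 10Lv replicate 5 the adjusted p of CGA was 0.597 and 0.707 by edgeR. Replicate 5 of 12La, 12Lv and 14Lv, each with few detected genes, stayed in these fits. Under 3 alternatives CGA was called against the 14 h difference: with the highest transcript per gene by limma-voom (log2 1.93, adjusted p = 0.0222), with the highest transcript and library sizes of all genes in edgeR (log2 1.75, adjusted p = 0.0458), and with DESeq2's size factors in edgeR (log2 1.74, adjusted p = 0.0465).

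In the CPM table CGA gave no such pattern. Its level ran from 74.5 through 148 to 167 CPM in 10La and from 18.7 through 162 to 281 CPM in 10Lv, and the 10La range lay inside that of 10Lv. The means were 134 ± 37.5 and 154 ± 99.2 CPM, while the fitted log2 change was -0.23 (SE 0.46, limma adjusted p = 0.996), so the mean level and the mean log level differ in sign. FSHB and TSHB had no read in either group of this table, which allows up to 0.638 CPM in 10La and 0.629 in 10Lv.

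The CPM table had 1 called gene of 8268 (0.0121%): KIFC2, a kinesin that in mouse carries cargo toward microtubule minus ends in neurons. Its recovered reads in the 6 libraries of 10La were 0, 1, 0, 0, 7 and 0, and in those of 10Lv 58, 36, 9, 9, 29 and 25. As levels these were 0 to 7.50 CPM against 14.4 to 54.7 CPM, with no overlap. The means were 1.42 ± 3.01 and 32.9 ± 13.3 CPM, and on the log2(CPM + 1) scale the change was 4.22 (SE 0.68, limma adjusted p = 0.00100). Over the schedule 10La was the low group: it held 8 reads, against 111 in 12La, 97 in 8L, 166 in 10Lv and 55 in 12Lv. The sums of 8L and 12Lv include columns whose reads were not recovered, so they are less certain.

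The reads of KIFC2 come in blocks over the series. In the 46 columns with recovered reads, its positive values were most often whole multiples of 9 reads. Such a block, with a size of its own, was found for 1408 of the 8268 fitted genes (17.03%). The share was higher among genes of small limma p: 15 of the 50 genes of smallest p (30%). Of the 397 genes at an unadjusted limma p under 0.05, 86 had a block (21.7%). In the 12 birds compared here, the KIFC2 values 36, 9 and 9 were multiples of 9, and 1, 7, 58, 29 and 25 were not. Divided by the block and rounded up, KIFC2 had 2 reads in 10La and 20 in 10Lv, with counts of 7, 4, 1, 1, 4 and 3 in the birds of 10Lv. On divided reads the call was kept by limma (log2 change 1.87, SE 0.37, adjusted p = 0.0460) and lost by edgeR (log2 change 2.86, SE 0.58, adjusted p = 0.253) and by DESeq2 (log2 change 3.02, SE 0.94, adjusted p = 0.593). It was also lost by limma-voom on the undivided reads (log2 change 4.56, SE 0.89, adjusted p = 0.0634). The limma fit on divided reads held all 53 libraries. The edgeR, DESeq2 and limma-voom fits held only the columns with recovered reads, so tool and libraries changed together. Leaving out any 1 of the 12 libraries kept the call, with log2 changes from 4.05 to 4.69. The name is the one the CPM table gives; it was not found in the RefSeq gene table of the species or among the genes of the count table.

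**Figure D2:**
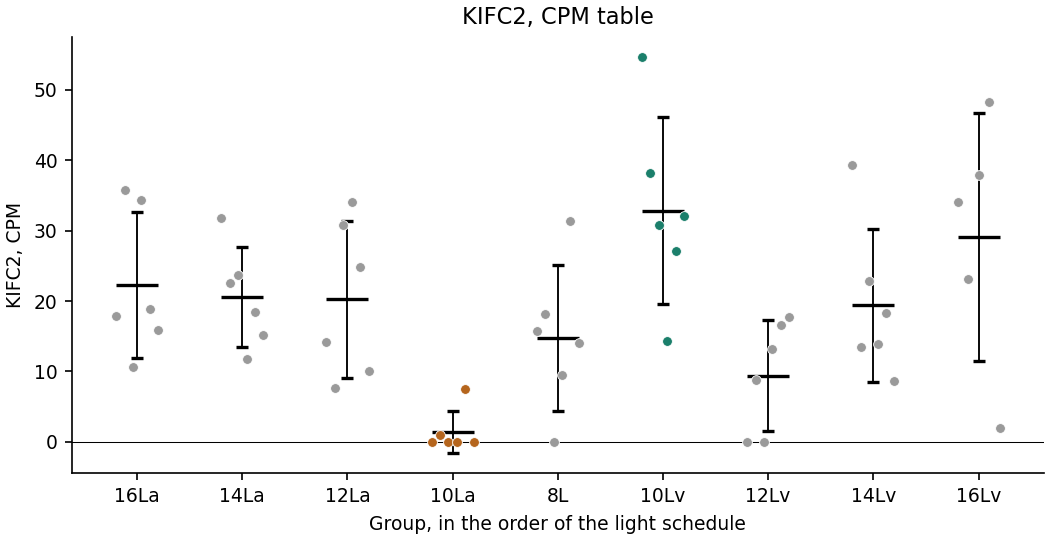
KIFC2 in the CPM table for each bird of the 9 groups in the order of the light schedule; points are birds, bars are mean ± SD, and the 2 near-identical libraries of 16Lv are 1 point. The birds of 10La (brown) lie at 0 to 7.50 CPM, below each bird of 10Lv (green) at 14.4 to 54.7 CPM.

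The 10 h difference of KIFC2 was set against that at 12 h and 14 h. At 12 h KIFC2 was at 20.2 ± 11.2 CPM on the declining arm and 9.39 ± 7.92 on the rising arm. The 10 h difference exceeded the 12 h difference by 5.83 on the log2 scale (SE 0.96, limma adjusted p = 0.00164), the only gene of 8268 called in that test with all libraries (0.0121%). Without 10La replicate 6 VCL and LOC107051906 were called as well, and without 10Lv replicate 5 VCL was. Against 14 h, where the groups were at 20.6 ± 7.11 and 19.4 ± 10.9 CPM, it was higher by 4.36 (SE 0.96, limma adjusted p = 0.310) and 0 of 8268 genes (0.0%) were called, with 350 at an unadjusted p under 0.05; without 10La replicate 5 KIFC2 was called there (log2 4.83, limma adjusted p = 0.0456). On reads divided by the block the 12 h test no longer called it (limma adjusted p = 0.0509, edgeR adjusted p = 0.893). The edgeR fit lacked 12Lv replicates 1 and 6, whose reads were not recovered, while the limma fit held them.

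**Figure D3:**
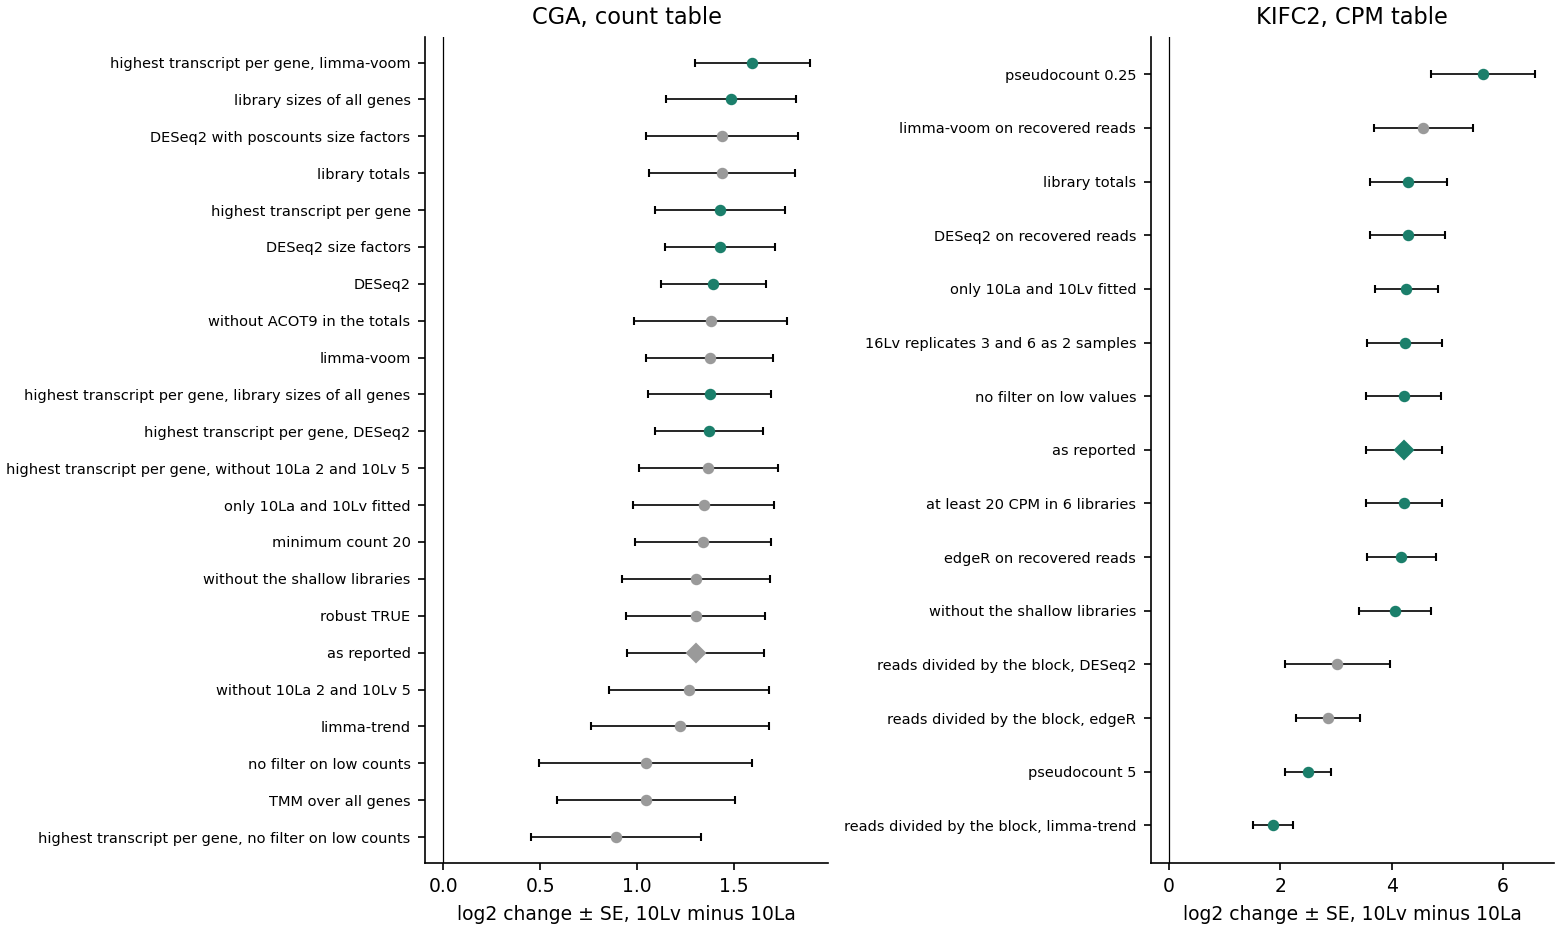
Log2 change of CGA in the count table (left) and KIFC2 in the CPM table (right), 10Lv minus 10La, under each alternative other than leaving out 1 library; points are log2 changes, whiskers are SE, green marks an adjusted p under 0.05 and the diamond is the value as reported. CGA lies between 0.89 and 1.597 and is called under 7 of 21 alternatives; KIFC2 lies between 1.87 and 5.64 and is called under 11 of 14.

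Beyond KIFC2 no gene of the CPM table passed. At an unadjusted p under 0.05 there were 397 genes (4.8%), 178 higher (2.15%) and 219 lower (2.65%) in 10Lv. With library totals in place of TMM factors 246 were higher and 152 lower, so this split depended on the scaling. Of the fitted genes, 11 had every 10Lv bird above every 10La bird (0.133%) and 5 the reverse (0.0605%), together 0.194%. LAS1L, a factor of large ribosomal subunit assembly, was among the former. It ran from 0 through 2.94 to 5.99 CPM in 10La and from 6.84 through 9.67 to 14.4 in 10Lv, with a log2 change of 1.65 (SE 0.36, limma adjusted p = 0.113). Without 10La replicate 2 LAS1L passed as well (limma adjusted p = 0.0190). GSTCD, a protein with a glutathione S-transferase C-terminal domain, was at 1.53 ± 2.53 CPM in 10La and 14.3 ± 4.51 in 10Lv (log2 change 2.98, SE 0.82, limma adjusted p = 0.889). Its level over the 12 libraries was the most like that of KIFC2 (Pearson r = 0.92 on log2 levels, a description over 12 libraries), followed by SART3 (0.85), MAML1 (0.84), SUGT1 (0.84) and OXNAD1 (0.84). The difference between the groups enters each r. Whether these genes vary together among the birds within a group was not tested.

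PTPN13, a tyrosine phosphatase, was at 6.27 ± 7.63 CPM in 10La and 43.2 ± 25.3 in 10Lv (log2 change 3.14, SE 0.74, limma adjusted p = 0.299). Over the series its reads came in blocks of 8. The groups overlapped, the highest bird of 10La at 19.7 CPM and the lowest of 10Lv at 12.8. TUB, whose loss causes obesity in mouse, was at 54.7 ± 35.0 and 107 ± 24.4 CPM (log2 change 1.10, SE 0.30). AKAP13, a scaffold for protein kinase A, was at 24.8 ± 24.2 and 60.9 ± 20.02 CPM (log2 change 1.54, SE 0.45). The other genes of smallest p on this side were TSR3, PSIP1, KIAA0196, COMMD2, MIPOL1 and ZNF827, with log2 changes from 0.89 to 3.37; limma adjusted p was 0.889 for each gene of this side after PTPN13.

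On the lower side CPEB1, which binds cytoplasmic polyadenylation elements of mRNAs, was at 244 ± 65.3 CPM in 10La and 116 ± 52.2 in 10Lv. Its log2 change was -1.30 (SE 0.37, limma adjusted p = 0.889). MITF, a transcription factor known from pigment cells, was at 67.9 to 140 CPM in 10La and 0 to 46.6 CPM in 10Lv, without overlap (log2 change -2.42, SE 0.74); in the count table it had 0 and 19 counts. VCL, which encodes the adhesion protein vinculin, had 44 reads in 10La and 5 in 10Lv, again without overlap. DAAM2, a formin, was at 639 ± 135 and 403 ± 174 CPM (log2 change -0.81, SE 0.24), and EPB41L2, of the membrane skeleton, at 1294 ± 320 and 905 ± 402 CPM (log2 change -0.69, SE 0.21). WNK4, a kinase of ion transport, had 42 reads in 10La and 0 in 10Lv. The other genes on this side were TMEM87B, HS1BP3, STMN4, GNG11, COIL and NLRP1L, with log2 changes from -2.85 to -0.58. None of them passed (limma adjusted p = 0.889 for each of the 12). Of the 24 genes named here, 19 are listed in the count table and 4 reached its fit: PTPN13, AKAP13, DAAM2 and EPB41L2. None of these 4 had an unadjusted edgeR p under 0.05 there, the smallest being 0.178 for AKAP13.

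The named genes on the lower side of the count table were nearly absent from 10Lv, which is part of how they were chosen. The 12 genes of smallest p were OPTN, KIF16B, MAP4K4, CIT, MGA, CBR4, GIGYF2, PLEKHA7, KANSL1L, AURKAIP1, ERC1 and CACNA1D, and 10 of them had 0 counts in every 10Lv library. Their sums were 24 to 169 counts in 10La. Each has 5 to 18 transcripts, and by the highest transcript the sums in 10La were 3 to 14 counts against at most 1 in 10Lv. OPTN, an autophagy receptor, had 83 summed counts in 10La and 0 in 10Lv, and 14 against 0 by the highest transcript (edgeR adjusted p = 0.155 on sums, and 0.145 without the pair of libraries that stood apart). All 12 were fitted in the CPM table, where their log2 changes ran from -0.86 to 0.54 and the smallest unadjusted limma p was 0.204. OPTN was there at 42.6 ± 7.81 CPM in 10La and 40.1 ± 9.56 in 10Lv. With no filter on low counts CIT, GIGYF2, KIF16B, MAP4K4 and MGA were called as lower in 10Lv by edgeR, and 0 genes were called when the highest transcript was used with no filter.

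On the higher side, CGA and FSHB were followed by genes with few counts in some birds. ESR1, which encodes estrogen receptor alpha, had 45, 0, 0, 3, 2 and 0 counts in 10La and 25, 2, 31, 24, 0 and 12 in 10Lv, at 77.8 ± 143 and 525 ± 442 CPM (log2 change 2.45, SE 1.08, edgeR adjusted p = 0.929). BCAP31, a chaperone of the endoplasmic reticulum, was at 32.3 ± 39.9 and 242 ± 223 CPM (log2 change 2.56, SE 1.05, edgeR adjusted p = 0.703). Without the pair of libraries that stood apart, the log2 changes were 2.55 for ESR1 and 2.64 for BCAP31. The remaining genes were MCF2L, BRSK2, TMEM248, BBX, IKZF2, SVIL, MRTFB and TMEM59, none of which passed.

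With the settings as reported, no fitted gene of the photoperiod response or of the arcuate nucleus was called. Of the 29 genes of a priority list, 16 were fitted in the CPM table, and KIFC2 was the 1 called, as given above. KIFC2 is on the list, with PTPN13, because earlier results of these data were known, so its call says nothing about the list. DIO2 had 15 reads in 10La and 31 in 10Lv, at 2.85 ± 2.87 and 8.43 ± 8.78 CPM (log2 change 0.99, SE 0.64, limma adjusted p = 0.979); DIO3 had 1 read in each group. TSHR, the thyrotropin receptor, was at 0.951 ± 1.31 and 1.06 ± 1.32 CPM and was below the filter. NPY, an appetite-stimulating peptide, ran from 162 through 198 to 351 CPM in 10La and from 120 through 171 to 236 in 10Lv (log2 change -0.45, SE 0.23, limma adjusted p = 0.966). The ranges overlapped, and the highest bird of 10La stood apart from the rest. AGRP, which is made in the same neurons, was at 10.9 ± 10.5 and 5.36 ± 2.88 CPM (log2 change -0.58, SE 0.77). GHRH, which drives growth hormone release, was at 8.00 ± 6.80 and 3.54 ± 4.75 CPM (log2 change -1.45, SE 0.80). VIP, which stimulates prolactin release in birds, was at 55.5 ± 24.4 and 56.0 ± 14.9 CPM, and NPVF, which encodes gonadotropin-inhibitory hormone, at 71.1 ± 39.1 and 69.4 ± 22.3 CPM.

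**Figure D4:**
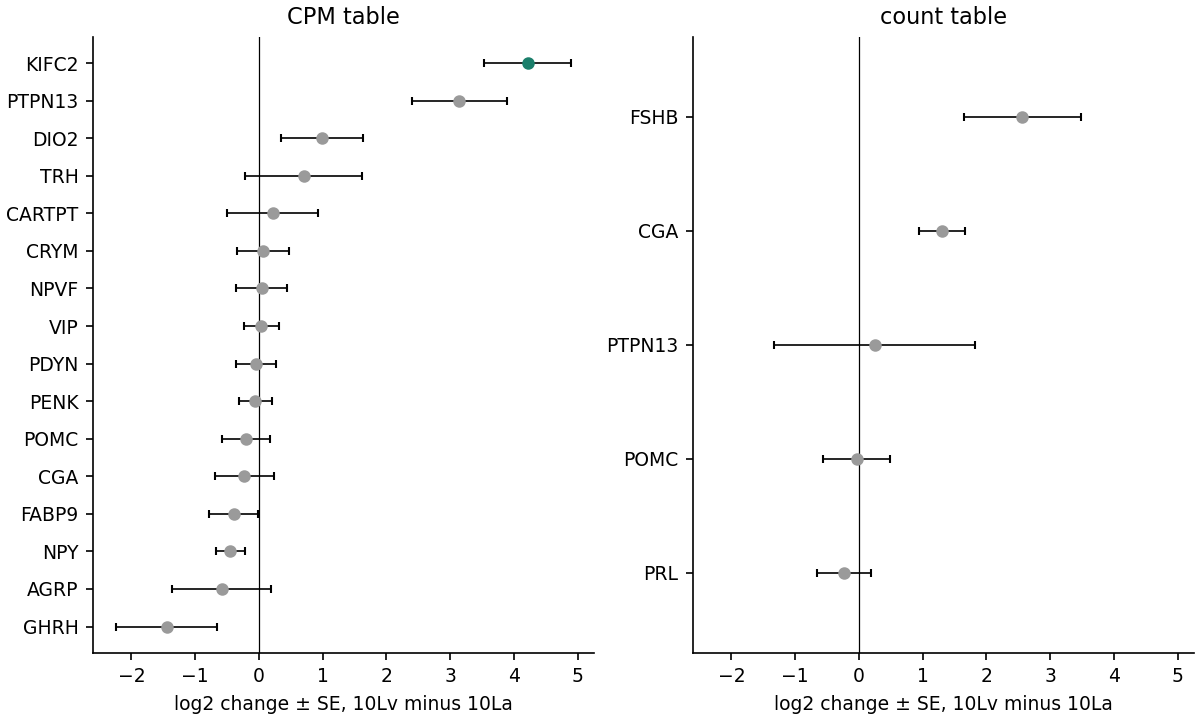
Log2 change ± SE, 10Lv minus 10La, of the priority genes fitted in the CPM table (left, 16 genes) and the count table (right, 5 genes). Green marks an adjusted p under 0.05. The list holds photoperiod, pituitary and energy balance genes, and KIFC2 and PTPN13, which were put there because earlier results of these data were known. KIFC2 at 4.22 is the 1 green point; CGA and FSHB in the count table lie at 1.30 and 2.56.

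Lists of genes were described in the CPM table by their counts and medians, beside a median log2 change of -0.02 and 3970 positive of 8268 genes. Cytosolic ribosomal protein genes were mostly negative, 61 of 66 fitted, with a median of -0.15 and 0 called. Among the 66, 3 were below an unadjusted limma p of 0.05, a share near that of all fitted genes (397 of 8268, 4.8%). The 3 were RPS10 at 425 ± 72.3 and 345 ± 38 CPM, RPL23A and RPLP2. Genes of nuclear-encoded oxidative phosphorylation were negative in 39 of 51, with a median of -0.12. Of these 51, 5 were below an unadjusted limma p of 0.05 and 0 were called. NDUFA1, a subunit of complex I, was at 424 ± 143 and 312 ± 62.7 CPM (log2 change -0.47, SE 0.18, limma adjusted p = 0.937). With library totals in place of TMM factors the median of all genes was 0.03 and these lists stood at -0.09 (51 of 66 negative) and -0.06 (32 of 51 negative). Of all fitted genes 4446 were then positive, and the signs of some lists below moved with this scaling as well.

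Cell type markers were read in the same way. Oligodendrocyte markers were negative in 8 of 9, with a median of -0.40, while their summed level ran from 5929 to 10351 CPM in 10La and from 5348 to 8466 in 10Lv. TSPAN2, a tetraspanin of myelinating cells, was at 183 ± 38.5 and 116 ± 29.9 CPM (log2 change -0.73, SE 0.27, limma adjusted p = 0.937) and MBP at 6008 ± 1544 and 5586 ± 1170 CPM. Microglial markers were negative in 4 of 5 fitted, on summed levels of 23.0 to 87.2 and 10.3 to 47.4 CPM. Neuronal markers were positive in 9 of 12, with a median of 0.06 and summed levels of 28585 to 42884 and 35008 to 54597 CPM. With library totals neuronal markers were positive in 11 of 12 (median 0.12) and microglial markers negative in 3 of 5. Oligodendrocyte markers stayed negative in 8 of 9. Whether the share of these cells differed between the dissections was not tested. TTR, made by the choroid plexus, had 2629 reads in 10Lv replicate 6 and at most 8 in any other of the 12 libraries.

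Among the remaining lists, heat shock and glucocorticoid response genes were positive in 7 of 10, with a median of 0.16, and in 9 of 10 with library totals. HSP90AA1, a chaperone of steroid receptors, ran from 458 through 690 to 979 CPM in 10La and from 745 through 940 to 1123 in 10Lv (log2 change 0.36, SE 0.13, limma adjusted p = 0.934). Kinesin motor genes were positive in 12 of 21; beside KIFC2, the axonal motor KIF1A was at 1808 ± 316 and 2466 ± 531 CPM (log2 change 0.38, SE 0.17, limma adjusted p = 0.966). Synaptic vesicle genes were positive in 15 of 23 (median 0.10), granins and prohormone processing genes in 8 of 10 (median 0.10), and circadian clock genes in 7 of 12 (median 0.09), with 0 called in each. Hypothalamic neuropeptide genes were positive in 8 of 21 (median -0.06), and in 10 of 21 with library totals. PNOC, the precursor of nociceptin, was at 37.3 ± 11.3 and 22.2 ± 10.5 CPM (log2 change -0.86, SE 0.32, limma adjusted p = 0.937).

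Markers of the other cell types had mixed signs. Astrocyte and tanycyte markers were positive in 5 of 11 (median -0.20), with CRYAB, a small heat shock protein gene, at 184 ± 37.6 and 141 ± 15.04 CPM (log2 change -0.43, SE 0.20, limma adjusted p = 0.966). Erythrocyte markers were negative in 3 of 3 (median -0.45), meningeal and fibroblast markers in 4 of 5 (median -0.08), and endothelial markers in 1 of 2. Ependymal and choroid plexus markers were positive in 2 of 3, and pituitary markers in 1 of 4 (median -0.22). Genes of the thyroid hormone pathway were positive in 4 of 8 (median -0.08), fatty acid binding proteins in 3 of 6 (median -0.10), immediate early genes in 2 of 4, and glutamate and GABA receptor genes in 13 of 25 (median 0.03). With library totals the receptor genes were positive in 16 of 25. DNA methylation and histone deacetylation genes were positive in 6 of 10 (median 0.22), with HDAC2, a histone deacetylase, at 17.3 ± 10.2 and 27.4 ± 7.23 CPM (log2 change 1.09, SE 0.50, limma adjusted p = 0.966). None of these lists held a called gene. In the count table, where the median of all genes was -0.16, pituitary markers were positive in 4 of 6 (median 0.09), and ribosomal protein genes in 25 of 70 (median -0.15); with library totals the latter turned to 40 of 70 positive (median 0.04).

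**Figure D5:**
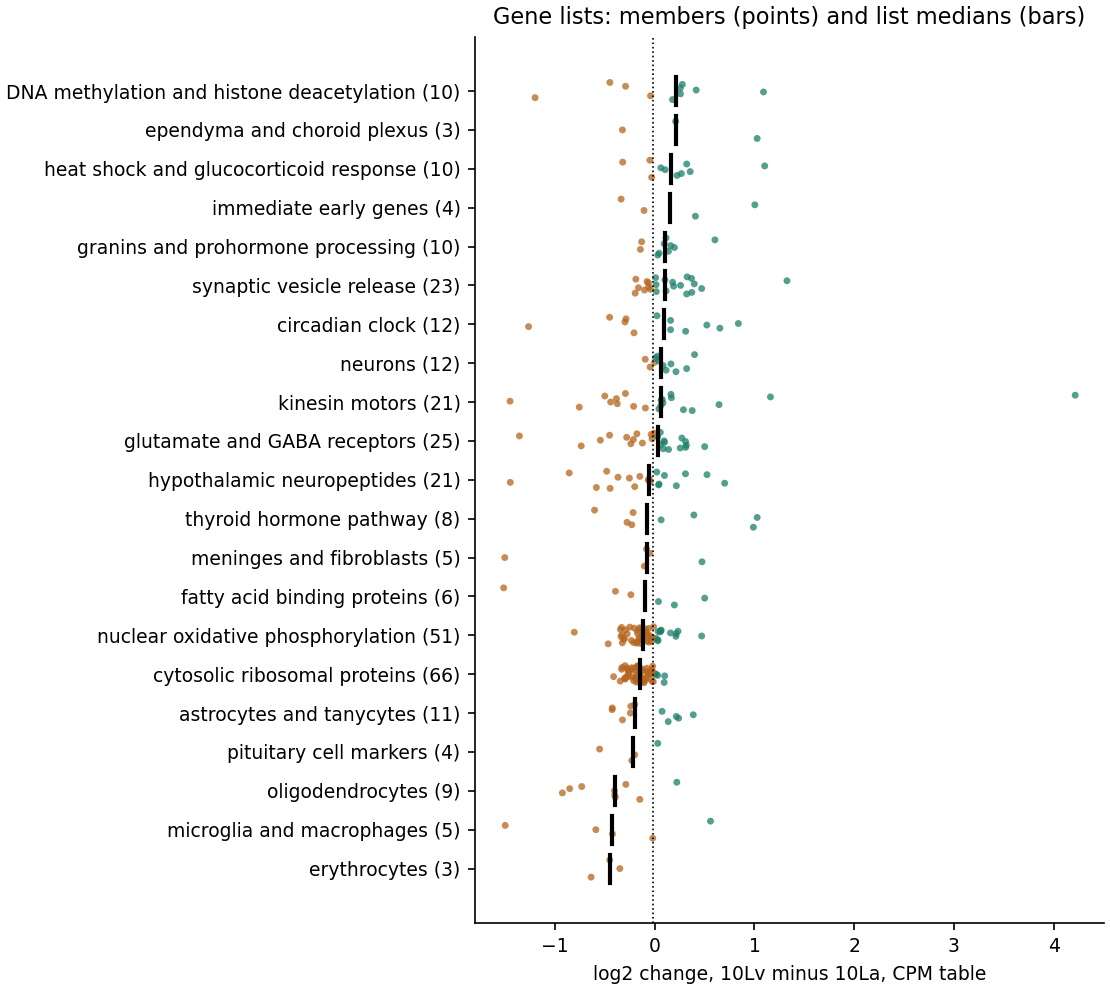
Log2 change, 10Lv minus 10La, in the CPM table for the fitted members of each gene list with 3 or more (number in brackets); green points are positive, brown points negative, bars are list medians and the dotted line is the median of all 8268 genes at -0.02. Ribosomal protein genes lie mostly left of 0 (61 of 66), and the point at 4.22 is KIFC2.

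The differences between the arms at 10 h, 12 h and 14 h were also set side by side across genes. Pearson's r across the 8268 genes of the CPM table was -0.01 between the 10 h and 12 h differences and -0.02 between those at 10 h and 14 h, and across the 826 genes of the count table it was 0.02 and 0.08. Genes are not independent replicates, so these values describe the tables only.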

How the data were processed

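RNA from the samples was turned into cDNA with an Oxford Nanopore direct cDNA kit with native barcodes, per the labels' protocols. Salmon 0.14.2, edgeR 3.24.3 and the aligner minimap2 2.17 are listed in the submitters' processing notes, without their settings; the genome build is not given in the sources used here, so no coordinates are reported. The authors deposited CPM per gene name (19916 genes used, after 14 names turned into dates were left out) and expected counts (estimated counts, not normalised) for 40282 transcripts of 16448 genes. Where CPM steps gave whole reads (46 of 54 columns, all 12 of the birds compared; at least 99.76% of values within 0.1 read there), reads were recovered for alternative count tests. In the count table sums per gene were rounded to whole numbers.

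The CPM table was fitted with limma 3.58.1 (limma-trend) on log2 of TMM-scaled CPM + 1, for genes with at least 10 CPM in at least 6 libraries; 16Lv replicates 3 and 6 differed by less than sampling noise and were counted as 1 sample (53 libraries). The count table was fitted with edgeR 4.0.16 (quasi-likelihood, filterByExpr, TMM, 54 libraries). Both fits held all 9 groups; adjusted p is Benjamini-Hochberg over all genes fitted, with a threshold of 0.05. Levels are CPM of the library total, mean ± SD. Single genes had exact permutation tests on log2(CPM + 1). DESeq2 1.42.0, voom and other alternatives are given in the closing section. The code was tested on simulated data. Replicate numbers follow accession order and only name birds.

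Genes named are each called gene, the 12 with a symbol of smallest p per side, 29 priority genes and list members with an unadjusted p under 0.05; genes named outside this rule were chosen after their values were seen. The members, the 22 gene lists and the tests were chosen with earlier results of these data known.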

Additional observations from a re-analysis of the deposited data

Results flagged for a closer look

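Called and priority genes with at least 10 reads in a group were examined, 46 groups in all. In 6 of them a bird lay far from the other 5, by the gap to the next bird over the range of the group. The cut-off is passed by chance in about 1 in 20 groups only where values are normally distributed. It was applied to CPM without a log transform, and each bird flagged was the highest of its group. How often chance alone passes it at such levels was not tested, so these 6 are not shown to exceed chance. In the CPM table NPY reached 351 CPM in 1 bird of 10La, against 221 in the next. TRH, the thyrotropin-releasing hormone gene, reached 74.5 CPM in 1 bird of 10La, against 8.61 in the next. GHRH reached 21.0 CPM in 1 bird of 10La, against 8.57. CARTPT, an appetite-suppressing peptide gene, reached 44.4 CPM in 1 bird of 10Lv, against 16.9, and PDYN, the prodynorphin gene, 195 CPM, against 121. In the count table DIO2 reached 95.8 CPM in 1 bird of 10La, against 35.9.

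The difference between the arms was larger at 10 h than at 12 h for KIFC2 by 5.83 on the log2 scale, a difference tested directly (limma adjusted p = 0.00164). Its groups held 8 and 166 reads at 10 h, and 111 and 55 at 12 h. The 55 of 12Lv include columns whose reads were not recovered, so that sum is less certain.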

How the results depend on the processing

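Most values kept their direction and their side of the threshold; sign changes fell on genes whose change was small beside its error or that had few reads. In the CPM table the count of called genes at 10 h was 1, and 0 with limma-voom and with reads divided by the block in edgeR and DESeq2; leaving out 1 library gave 1 to 2, the second being LAS1L without 10La replicate 2. The count for the 10 h minus the 12 h difference fell from 1 to 0 with limma-voom and with divided reads in limma and edgeR, and leaving out 1 library gave 1 to 3 (3 without 10La replicate 6 and 2 without 10Lv replicate 5); for 10 h minus 14 h leaving out 1 library gave 0 to 1 (1 without 10La replicate 5). In the count table the 10 h count of 0 became 1 with DESeq2, DESeq2's size factors, library sizes of all genes, and the highest transcript per gene in edgeR, DESeq2, limma-voom and with library sizes of all genes (CGA each time), and 5 with no filter; leaving out 1 library gave 0 throughout. With no filter the 10 h minus 12 h and 10 h minus 14 h counts were 43 and 63 instead of 0, and the latter was 1 with DESeq2's size factors and with the highest transcript in limma-voom or with library sizes of all genes. Permutation tests over all genes gave 0 under each scaling, but with 6 birds a group the smallest p they allow, 0.00216, leaves little room to pass, so this says nothing about stability.

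Log2 changes that changed sign were as follows. In the CPM table CGA (-0.23) was 0.15 with edgeR, 0.16 with DESeq2, and 0.14 and 0.16 on divided reads, and ran from -0.48 to 0.27 leaving out 1 library. CRYM (0.06) was -0.0203 and -0.0307 by the same tools, -0.0269 and -0.0305 on divided reads, and -0.20 to 0.22 leaving out 1 library. TRH (0.70) was -0.26, -0.27, -0.25 and -0.27 in that order. NPVF (0.04) was -0.0038 with DESeq2 and -0.0023 on divided reads, and -0.21 to 0.24 leaving out 1 library, and VIP (0.04) -0.11 to 0.16. PDYN (-0.04) was 0.0169 with library totals, 0.0765 with voom, 0.14 without the shallow libraries and -0.26 to 0.12 leaving out 1 library; PENK (-0.06) was 0.00055 with library totals, 0.0013 with voom and -0.16 to 0.0493 leaving out 1 library. Without the shallow libraries AGRP (-0.58) was 0.0208 and CARTPT (0.22) was -0.17; CARTPT ran from -0.28 to 0.59 leaving out 1 library. In the count table POMC (-0.04) was 0.0774 with DESeq2, 0.0773 with its size factors, 0.0799 with poscounts, 0.0545 with library totals, 0.21 without the shallow libraries, 0.0020 without ACOT9, 0.12 with library sizes of all genes, 0.0574 with the highest transcript, 0.0589 with it and without the libraries that stood apart, 0.0410 with it in DESeq2, 0.0418 with it and library sizes of all genes, and -0.40 to 0.16 leaving out 1 library; PTPN13 (0.25) ran from -0.87 to 1.42. The causes were not tested.

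No paired analysis was possible because the labels carry no replicate number and tie no bird of one group to a bird of another; the numbers used here follow accession order and do not pair birds, although the shallow library of the CPM table was replicate 3 in 7 of 9 groups, so that position and depth run together. Without the shallow libraries KIFC2 stayed the 1 gene called at 10 h. The ratios of CGA, the leaving out of 1 library in the tests between day lengths, and the alternatives with the highest transcript, divided reads, library sizes of all genes, TMM over all genes, poscounts and the removal of the libraries that stood apart were chosen after seeing the data. Of the 16448 genes of the count table, 826 reached its fit at these depths.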
